A study of Homo sapiens with 5 samples.

Results

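JUN and 9 genes whose proteins can pair with it were examined in MCF10A SAM cells with raised JUN. The 10 genes were JUN, JUNB and JUND (JUN-type), FOS, FOSL1 and FOSL2 (FOS-type), and ATF2, ATF3, ATF7 and BATF3 (ATF-type). They were chosen by name, and all 10 were found among the 23459 genes of the count table through their Entrez identifiers. MCF10A is an immortalised line of human mammary epithelial cells. The SAM derivatives carry dCas9-VP64, a dead Cas9 joined to an activator, and MCP-p65-HSF1, a second activator that binds the guide RNA. Both groups therefore share these constructs, and the SAM cells are described as clonal, so that the data speak for one clonal derivative. Cells of one group carried a non-targeting control guide (NTC, 3 libraries), and cells of the other carried sgJUN#1, a guide against the JUN promoter (2 libraries). The labels give no further treatment and no time course. The labels do not say whether libraries of a group came from separate cultures, so p-values measure the spread between these libraries only. The study's figure legend gives 2 biological replicates for this comparison, while its RNA-seq methods name 3 per condition for all samples. Which NTC libraries it used is not given in the sources used here, so all were kept.

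AP-1 is not one protein but a set of dimers built through leucine zippers, and each dimer touches DNA with a pair of basic regions (together the bZIP domain). JUN proteins pair with each other, with FOS proteins or with ATF proteins. FOS proteins cannot form stable pairs among themselves and need a JUN partner. JUN::FOS dimers favour the 7-base AP-1 site TGACTCA, and JUN::ATF dimers favour the 8-base cAMP response element (CRE) TGACGTCA. In epithelial cells AP-1 is known for its response to growth factors, wounding and stress, and the supply of each subunit limits which dimers can form. The question taken up here is which subunits these cells express as mRNA, and how their balance stood once JUN was raised.

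The promoter of JUN is shown because sgJUN#1 was directed to it and because JUN is a known target of its own dimers. The sequence is RefSeq's, on GRCh38.p14, and covers the 250 bases before the annotated start site, 5′ to 3′ on the minus strand (chr1:58784048-58784297). Capitals mark matches to 2 octamers that differ from the CRE, TTACCTCA and TGACATCA.
JUN promoter: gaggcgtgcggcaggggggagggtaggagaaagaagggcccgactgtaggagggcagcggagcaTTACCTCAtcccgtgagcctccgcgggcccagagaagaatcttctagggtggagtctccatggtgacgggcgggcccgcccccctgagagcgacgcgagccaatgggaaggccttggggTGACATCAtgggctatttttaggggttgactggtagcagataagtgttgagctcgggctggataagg
Of the 10 genes, 7 had promoter entries, and FOSL1, ATF2 and BATF3 had none. The letters TGACTCA, TGACGTCA, TGACATCA and TTACCTCA were searched on both strands in the 250 bases before each start. In JUN the matches began 186 and 67 bases before the start site. JUND and ATF3 each held 1 match, in capitals below, in windows of 32 bases at chr19:18281803-18281834 (minus strand) and chr1:212565272-212565303 (plus strand) of GRCh38.p14.
JUND promoter window: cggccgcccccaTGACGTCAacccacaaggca
ATF3 promoter window: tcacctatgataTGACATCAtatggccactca
The JUND match is the CRE itself and the ATF3 match is the octamer that JUN also holds. JUNB, FOS, FOSL2, ATF7 and the second ATF3 promoter held none of these letters in this stretch. Over all 35116 promoters searched, TGACATCA occurred in 2.37%, TTACCTCA in 0.644%, TGACGTCA in 1.65% and TGACTCA in 4.2%. The letters were a fixed list and not the outcome of a motif search, so these shares are no test of the matches in JUN.

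The libraries were 3′ end counts with totals between 2455627 and 4988062 per library. A 3′ end protocol yields about one fragment per transcript. Levels of different genes were therefore compared as CPM (counts scaled to library size, with TMM factors) without division by length. Such comparisons assume that reads were assigned alike for all genes, and how they were assigned is not fully given. The counts do not measure protein. A count of 0 allows up to 3 counts, which is between 0.619 and 1.22 CPM. Of 8 basal mammary epithelial markers, 7 had counts in every library, and their summed level was between 789 and 1830 CPM in NTC and between 952 and 1270 CPM in sgJUN#1. Of these 8, 0 passed with edgeR, DESeq2 or limma-voom and 1 (ITGB4) had an unadjusted edgeR p-value under 0.05. Of all tested genes, 8.38% had such a p-value. Without overlap, KRT14, EGFR and ITGB4 were lower and KRT17 was higher in sgJUN#1, with log2 fold changes of -1.16, -0.68, -2.55 and 1.80. Over all tested genes, 12.8% were lower and 12.2% higher without overlap. The defining basal genes KRT14 and TP63 were low, with mean levels of 2.78 and 5.45 CPM in NTC. Luminal markers summed to 57.0 to 170 CPM in NTC and to 53.9 and 54.7 CPM in sgJUN#1. Most of this was GATA3, with 75.4, 43.1 and 155 CPM in NTC and 36.3 and 41.1 CPM in sgJUN#1. GATA3 and PGR had log2 fold changes of -1.25 and -0.76, ESR1 and FOXA1 of 0.61 and 0.55, and none of them passed with edgeR. Markers of blood, endothelial and fibroblast cells summed to at most 17.5, 11 and 90.3 CPM in any library, with CD3E at 0 throughout. The blood markers reached 5.32 to 8.55 CPM in NTC and 11.4 to 17.5 CPM in sgJUN#1, mostly CD68, and their part in any result was not tested.

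In NTC every one of the 10 genes was detected, but their levels spread widely. FOSL2 was the most abundant, at 93.3 ± 38.3 CPM (SD, n = 3), and lay above all others in each NTC library. ATF2 with 46.2 ± 9.72 CPM and JUNB with 38.7 ± 7.52 CPM (SD, n = 3 each) came next, and their ranges overlapped. A middle group followed, made of ATF3 (26.7 ± 3.10 CPM), FOSL1 (26.6 ± 16.2 CPM), JUN (23.5 ± 13.5 CPM), ATF7 (18.3 ± 4.12 CPM) and JUND (16.2 ± 6.12 CPM; SD, n = 3 each). Each neighbour within this group overlapped the next, so these libraries do not fix their order. JUND was above FOS in each library, although their ranges overlapped. FOS and BATF3 had the lowest means, at 6.11 ± 6.81 and 2.19 ± 2.07 CPM (SD, n = 3 each). The order was not the same in each library: in NTC replicate 3 JUN (9.32 CPM) was below JUND, FOS and FOSL1, and FOS (14.0 CPM) was above FOSL1 and JUN.

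With sgJUN#1 the order opened with JUN. JUN was the most abundant of the 10 in both libraries, at 218 ± 66.4 CPM (SD, n = 2), and its lowest value was above the highest of any partner. Next stood FOSL2 (47.0 ± 6.91 CPM), ATF2 (39.0 ± 11.6 CPM), FOSL1 (39.0 ± 4.61 CPM) and JUNB (38.6 ± 11.6 CPM; SD, n = 2 each), whose ranges overlapped. ATF3, ATF7 and JUND followed at 21.2, 15.4 and 13.1 CPM, and FOS and BATF3 were again last, at 3.12 and 2.62 CPM.

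**Figure D1:**
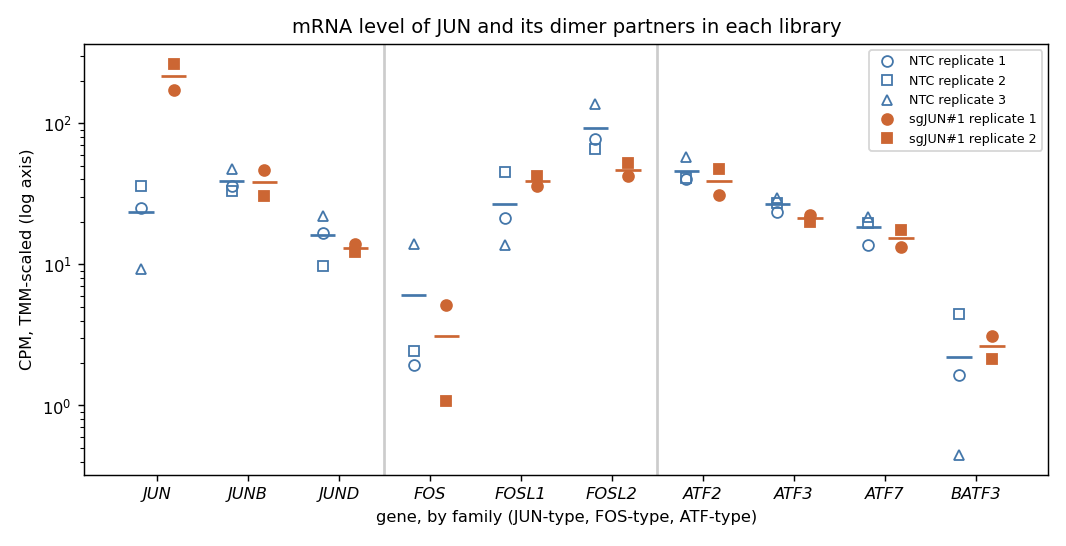
Level of each gene in each library as TMM-scaled CPM on a log axis, with open blue symbols for NTC replicates, filled orange symbols for sgJUN#1 replicates and a line at each group mean. JUN alone moved clear of the rest, from 23.5 to 218 CPM on average, while for FOSL2 and ATF3 both sgJUN#1 symbols lie below all 3 NTC symbols.

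Taken one by one against all 13616 genes with enough counts to be tested, 0 of the 10 genes passed an adjusted p-value of 0.05 with edgeR's quasi-likelihood test, where 0.206% of all tested genes did (0.0808% higher and 0.125% lower in sgJUN#1). With DESeq2, 1 of the 10 passed, which was JUN, where 1.06% of all tested genes did, and JUN and FOSL2 were the members with an unadjusted edgeR p-value under 0.05 (0.000206 and 0.0119), as for 8.38% of all tested genes. The groups did not overlap in 3 members, JUN being higher and FOSL2 and ATF3 lower in sgJUN#1. Over all tested genes, 12.2% were higher and 12.8% lower without overlap. The median log2 fold change of the 10 genes was -0.26, beside -0.008 over all tested genes.

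JUN (Entrez 3725, GRCh37 chromosome 1, 59242517 to 59249720, minus strand, 1 exon) is the target of the guide and the subunit that all dimers considered here can hold. Its level was 25.0, 36.2 and 9.32 CPM in NTC replicates 1, 2 and 3, and 172 and 265 CPM in sgJUN#1 replicates 1 and 2. Both sgJUN#1 libraries were far above all NTC libraries, and NTC replicate 3 was the lowest. The fitted change was 9.51-fold (log2 fold change 3.25, SE 0.484, edgeR adjusted p-value 0.0733), with a 95% interval of the log2 fold change, unadjusted for the number of genes, from 2.12 to 4.38. By exact permutation of the library labels (two-sided) p was 0.1, which is the smallest that 3 against 2 libraries allow. The call depended on which library was left out. JUN passed without NTC replicate 3 or NTC replicate 2, with log2 fold changes of 2.84 and 3.68 (edgeR adjusted p-values 0.00121 and 0.0144). It did not pass without NTC replicate 1, at a log2 fold change of 3.32 (edgeR adjusted p-value 0.279). Without sgJUN#1 replicate 1 or sgJUN#1 replicate 2 the log2 fold changes were 3.53 and 2.9.

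The divergent non-coding gene JUN-DT (Entrez 100131060), listed as LINC01135 in the annotation, starts 336 bp from JUN on the opposite strand. It held 24, 18 and 45 counts in NTC and 16 and 11 in sgJUN#1, so that both sgJUN#1 libraries were lower in CPM than all NTC libraries. Its log2 fold change was -1.16 (SE 0.389), which did not pass (edgeR adjusted p-value 0.438).

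JUNB (Entrez 3726, chromosome 19, 12902300 to 12904129, plus strand, 1 exon) encodes a JUN paralog that is a weaker activator and can hold JUN in less active dimers. NTC libraries had 36.0, 33.0 and 47.2 CPM and sgJUN#1 libraries 46.9 and 30.4 CPM, and the groups overlapped in part, with sgJUN#1 replicate 2 below all NTC libraries and sgJUN#1 replicate 1 within their range. The mean in sgJUN#1 was 0.997 times that in NTC, with a 95% interval of the log2 fold change from -0.60 to 0.60, which bounds the change in either direction. In the annotation used here JUNB lies inside HOOK2 on the opposite strand, and HOOK2 held between 39.0% and 53.1% of the JUNB count in every library. Reads of the pair cannot be told apart if strand was not used.

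JUND (Entrez 3727, chromosome 19, 18390504 to 18392432, minus strand, 1 exon) encodes the paralog that is usually expressed steadily and is linked to quiescence. Its values were 16.8, 9.77 and 22.0 CPM in NTC and 14.0 and 12.2 CPM in sgJUN#1. The sgJUN#1 libraries fell within the NTC range, and the log2 fold change was -0.32 (SE 0.347, 95% interval -1.10 to 0.46).

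Among FOS-type genes, FOSL2 (Entrez 2355, chromosome 2, 28615315 to 28640184, plus strand, 4 exons) encodes FRA2, a FOS protein without the strong activation domain of FOS. The NTC libraries held 77.0, 65.9 and 137 CPM, and the sgJUN#1 libraries 42.1 and 51.9 CPM. Both sgJUN#1 libraries were below all NTC libraries, and NTC replicate 3 was well above the other two. The log2 fold change was -1 (SE 0.321, 95% interval -1.72 to -0.28), and it did not pass over all genes (edgeR adjusted p-value 0.409). By exact permutation (two-sided) p was 0.2. Without NTC replicate 3 the log2 fold change was smaller, at -0.61 (edgeR adjusted p-value 0.413). In the annotation used here FOSL2 overlaps the non-coding genes FOSL2-AS1 (opposite strand) and ENSG00000270640 (same strand). Reads of these genes could count for FOSL2, which was not tested.

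FOSL1 (Entrez 8061, chromosome 11, 65659520 to 65668044, minus strand, 4 exons) encodes FRA1, which is typical of EGF-stimulated and invasive epithelial cells. It had 21.2, 44.8 and 13.8 CPM in NTC and 35.7 and 42.2 CPM in sgJUN#1. NTC replicate 2 was above both sgJUN#1 libraries, while the other two NTC libraries were below them. The log2 fold change of 0.58 (SE 0.423, 95% interval -0.37 to 1.54) did not pass (edgeR adjusted p-value 0.763). It was 1.16 without NTC replicate 2 (edgeR adjusted p-value 0.230) and 0.26 without NTC replicate 3.

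FOS itself (Entrez 2353, chromosome 14, 75745529 to 75748933, plus strand, 4 exons), the classical immediate early partner of JUN, was scarce. The libraries held 7, 6 and 63 FOS counts in NTC and 25 and 3 in sgJUN#1. In CPM NTC replicate 3 stood apart at 14.0 (95% exact Poisson interval 10.7 to 17.9), against 1.93 (0.774 to 3.97) and 2.44 (0.896 to 5.32) in NTC replicates 1 and 2. The sgJUN#1 libraries also differed beyond counting error, at 5.16 CPM (3.34 to 7.62) and 1.07 CPM (0.221 to 3.14). With groups this uneven the log2 fold change of -0.93 had an SE of 0.941 and a 95% interval from -3.12 to 1.27. FOS was thus not resolved in either direction. FOSB, the remaining FOS gene, had at most 2 counts in any library and was not tested.

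All 4 ATF-type genes had intervals of the log2 fold change that included 0. ATF2 (Entrez 1386, chromosome 2, 175936978 to 176033110, minus strand, 14 exons) encodes the stress-kinase-regulated partner with which JUN binds CRE-like sites. Its values were 40.2, 41.1 and 57.4 CPM in NTC and 30.8 and 47.2 CPM in sgJUN#1, which overlap. Its close paralog ATF7 (Entrez 11016, chromosome 12, 53901640 to 54020194, minus strand, 12 exons) had 13.8, 19.5 and 21.7 CPM in NTC against 13.2 and 17.5 CPM in sgJUN#1, also with overlap. The log2 fold changes were -0.26 (SE 0.268, 95% interval -0.86 to 0.34) for ATF2 and -0.27 (SE 0.296, 95% interval -0.93 to 0.40) for ATF7. The ATF7 locus is shared with the read-through gene ATF7-NPFF, whose reads could count for ATF7.

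ATF3 (Entrez 467, chromosome 1, 212738676 to 212794119, plus strand, 4 exons) is a stress-induced repressor or activator depending on its partner. Its level varied little, with 23.4, 27.3 and 29.5 CPM in NTC and 22.3 and 20.0 CPM in sgJUN#1. Both sgJUN#1 libraries were below all NTC libraries, by a small margin. The log2 fold change was -0.33 (SE 0.238, 95% interval -0.87 to 0.20, edgeR adjusted p-value 0.759).

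BATF3 (Entrez 55509, chromosome 1, 212859759 to 212873182, minus strand, 3 exons), known best from dendritic cells, where it pairs with JUN proteins, was near the detection limit. It had 6, 11 and 2 counts in NTC and 15 and 6 in sgJUN#1. The corresponding levels of 1.65, 4.48 and 0.444 CPM and of 3.10 and 2.15 CPM overlapped. The log2 fold change of 0.48 had an SE of 0.760, and its 95% interval ran from -1.23 to 2.18. NTC replicates 2 and 3 differed beyond counting error, with 95% exact Poisson intervals of 2.23 to 8.01 and 0.0537 to 1.60 CPM.

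**Figure D2:**
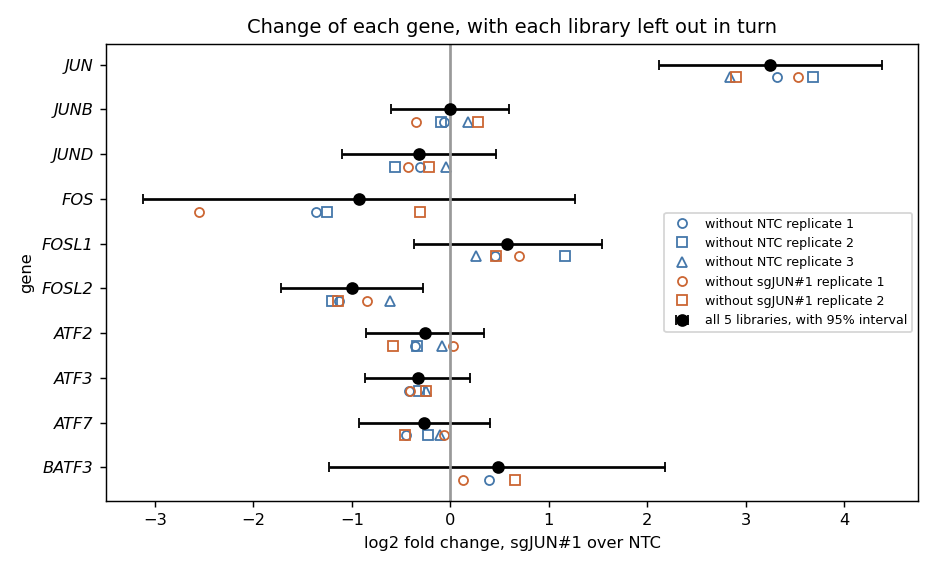
Log2 fold change of each gene, sgJUN#1 over NTC, from edgeR: black points are the fit to all 5 libraries with 95% intervals unadjusted for the number of genes, and coloured symbols are fits that each left out 1 library (absent where the gene then had too few counts). JUN stayed between 2.84 and 3.68, FOSL2 stayed below 0, and JUNB fell on both sides of 0.

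The balance of JUN to its partners was read within each library, as a ratio of counts, which needs no scaling between libraries. These ratios combine the members' own values and carry no test. JUN made up 32.2%, 45.9% and 11.9% of JUN-type counts in NTC replicates 1, 2 and 3, with exact (Clopper-Pearson) 95% intervals of 26.7% to 37.9%, 38.7% to 53.2% and 8.69% to 15.7%. In sgJUN#1 it made up 73.8% (71.1% to 76.3%) and 86.2% (83.7% to 88.4%). These intervals cover counting error only. In NTC replicates 1 and 3 JUNB was the leading JUN-type mRNA, in NTC replicate 2 JUN was, and in both sgJUN#1 libraries JUN led by a wide margin.

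The summed JUN-type level was nearly constant in NTC, at 77.84, 78.96 and 78.52 CPM, although JUN itself differed 3.89-fold between these libraries. Where JUN was lowest, in NTC replicate 3, JUNB and JUND were highest, at 47.2 and 22.0 CPM. In sgJUN#1 the sum was 232.4 and 308.1 CPM.

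The FOS-type sum was 100.1, 113.1 and 164.8 CPM in NTC and 82.97 and 95.17 CPM in sgJUN#1, where the groups did not overlap. FOSL2 supplied most of it in NTC, with 76.9%, 58.3% and 83.2%, and a smaller part in sgJUN#1, with 50.7% and 54.5%. FOSL1 made up 21.2%, 39.6% and 8.34% in NTC and 43.0% and 44.4% in sgJUN#1. FOS contributed between 1.13% and 8.48% in any library. In every library FOSL2 and FOSL1 thus made up most of the FOS-type mRNA.

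The ATF-type sum overlapped between the groups, with 78.94 to 109.1 CPM in NTC and 69.35 and 86.94 CPM in sgJUN#1. The shares of its larger members overlapped between the groups. ATF2 held between 44.3% and 54.3%, ATF3 between 23.0% and 32.1% and ATF7 between 17.4% and 21.1% of ATF-type counts in any library. The share of BATF3 ran from 0.407% to 4.85%.

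**Figure D3:**
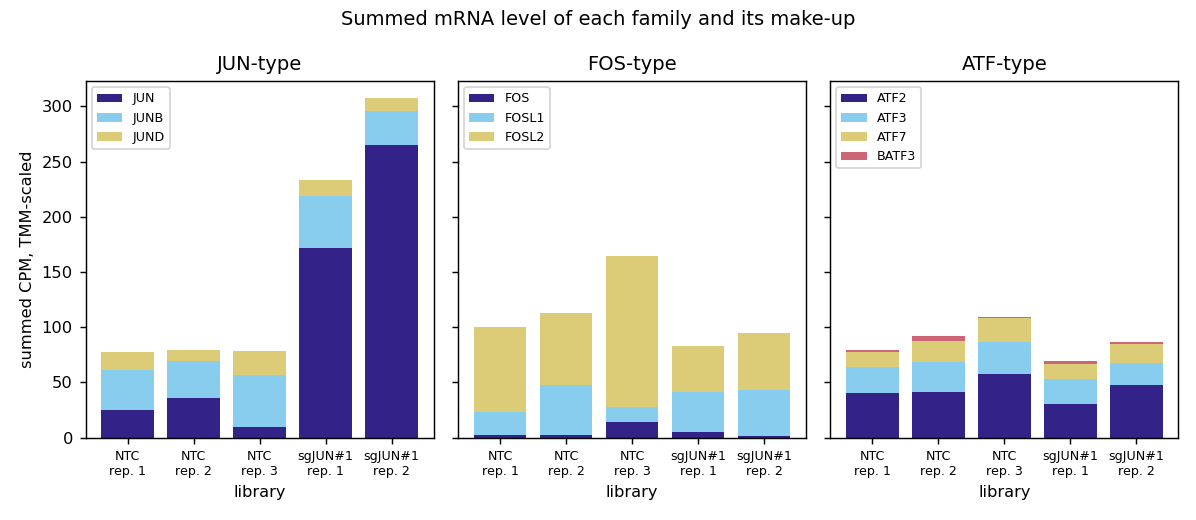
Summed TMM-scaled CPM of the JUN-type, FOS-type and ATF-type genes in each library, with each gene as a stacked part of the bar. The JUN-type bar rose from about 78.44 CPM on average in NTC to 232.4 and 308.1 CPM in sgJUN#1, of which JUN made up 73.8% and 86.2%, while FOSL2 took a smaller part of the FOS-type bar.

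JUN mRNA was outnumbered by FOS-type mRNA in every NTC library, with ratios of 0.250, 0.320 and 0.0565, and exceeded it in both sgJUN#1 libraries, with 2.07 and 2.79. The ratio of JUN to ATF-type counts went from 0.317, 0.392 and 0.0854 to 2.47 and 3.05. On the log2 scale the group means differed by 3.86 for FOS-type and 3.64 for ATF-type genes, with SDs within a group of at most 1.35 and 1.19. Most of that spread came from NTC replicate 3, and without it the differences were 3.09 and 2.96. Without FOSL2 in the FOS-type sum the first difference was 2.96. With all JUN-type genes counted, the ratio of JUN-type to FOS-type mRNA was 0.777, 0.698 and 0.476 in NTC and 2.80 and 3.24 in sgJUN#1. JUN alone accounted for 9.74%, 12.7% and 2.64% of the counts of all 10 genes in NTC, and for 44.6% and 54.2% in sgJUN#1.

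Against single partners JUN was below FOSL2 in each NTC library, with ratios of 0.325, 0.549 and 0.0680, and it was 4.07 and 5.12 times above it in sgJUN#1. Of the other partners for which single ratios were taken, ATF2 was above JUN in all 3 NTC libraries, with ratios of 0.623, 0.881 and 0.162. Against FOSL1, JUN was already higher in NTC replicate 1, and the ratio went from 1.18, 0.809 and 0.677 to 4.80 and 6.29. JUN was also above ATF3 in NTC replicates 1 and 2 (1.07 and 1.33) and above JUNB in NTC replicate 2 (1.10). Ratios that leave JUN out moved less. JUNB and JUND together over FOS-type genes gave 0.527, 0.378 and 0.420 in NTC and 0.734 and 0.447 in sgJUN#1, which overlap. FOS-type over ATF-type genes gave 1.27, 1.22 and 1.51 in NTC and 1.20 and 1.09 in sgJUN#1, a narrow separation. FOSL1 over FOSL2 gave 0.275, 0.679 and 0.100 in NTC and 0.848 and 0.814 in sgJUN#1, again without overlap.

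**Figure D4:**
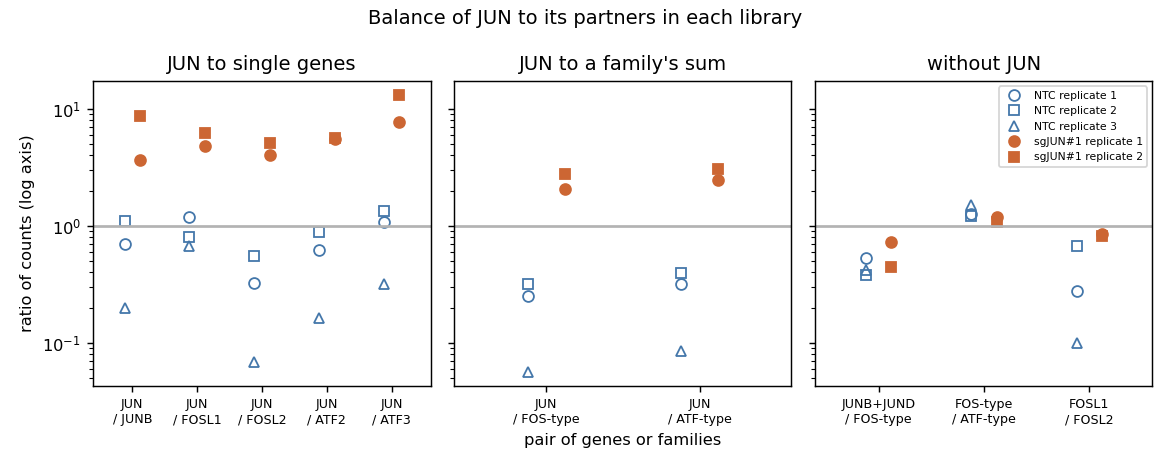
Ratios of raw counts within each library on a log axis, for JUN against single partners, JUN against family sums, and pairs without JUN. With sgJUN#1 every ratio that holds JUN was above 1 and above all NTC values, for example 2.07 and 2.79 for JUN over FOS-type genes against at most 0.320 in NTC.

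Other bZIP genes were counted from a list of 29 that includes further ATF, CREB, MAF, CEBP and NRF genes. Of these, 24 were tested and 0 passed with edgeR, DESeq2 or limma-voom. JDP2, 1 of the 24, had an unadjusted edgeR p-value under 0.05, where 8.38% of all tested genes did. The median log2 fold change of the 24 was -0.18, and in 1 gene (XBP1) both sgJUN#1 libraries were above and in 4 (JDP2, ATF4, CEBPB and MAFG) below all NTC libraries, where 12.2% and 12.8% of all tested genes were. The most abundant were ATF4, the effector of the integrated stress response, CEBPB, a regulator of epithelial and inflammatory genes, NFE2L2, the antioxidant factor NRF2, and the small MAF gene MAFG. They stood at 406 ± 20.7, 324 ± 64.2, 192 ± 33.0 and 134 ± 10.4 CPM in NTC (SD, n = 3) and had log2 fold changes of -0.38, -0.24, -0.20 and -0.28. CREB5, a CRE-binding factor related to ATF2, had 43.5, 71.2 and 123 CPM in NTC and 110 and 112 CPM in sgJUN#1, so both sgJUN#1 libraries were inside the NTC range. Its log2 fold change was 0.48, with an SE of 0.364 and an adjusted p-value of 0.771 in edgeR, and 0.96 without NTC replicate 3 (edgeR adjusted p-value 0.186). CEBPD, JDP2 (a JUN-binding repressor) and ATF6B had log2 fold changes of -0.88, -0.72 and -0.49, with edgeR adjusted p-values of at least 0.552.

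**Figure D5:**
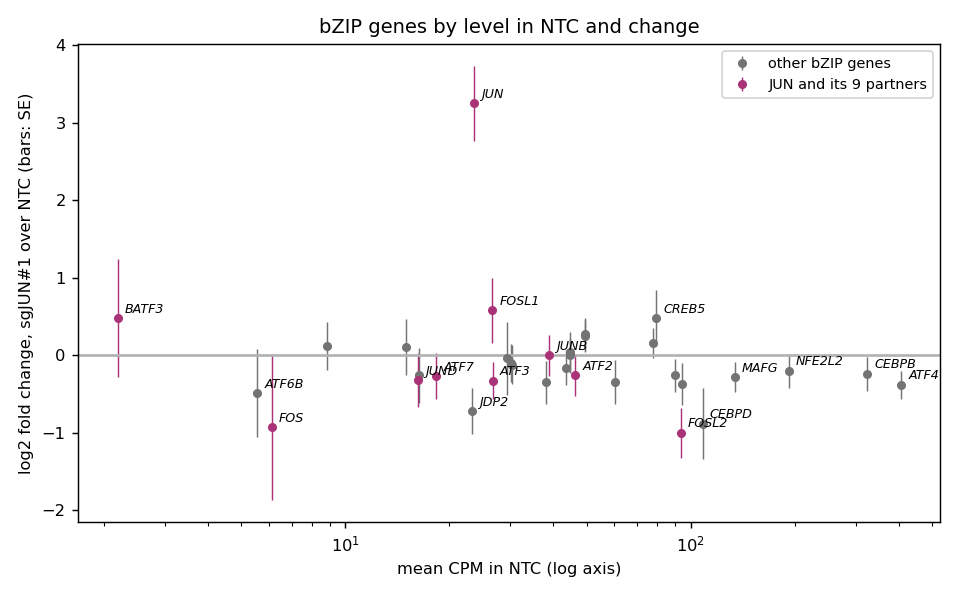
Log2 fold change (edgeR, bars show SE) against the mean NTC level on a log axis for JUN and its 9 partners and for the 24 tested genes of the other bZIP list. JUN at 3.25 lies above all of them, and FOSL1 at 0.58 is next.

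A list of 9 genes that act on JUN protein held the kinases of the JNK cascade and the ubiquitin ligases that mark JUN for decay. Of these, 1 passed, with edgeR, DESeq2 and limma-voom alike, and it was lower. Over all tested genes, 0.206% passed with edgeR (0.125% lower) and 1.06% with DESeq2. The list was chosen with earlier results of these data known, so the count is no test of these genes as a group. MAP2K4, which encodes the JNK-activating kinase MKK4, had 166, 145 and 168 CPM in NTC and 61.9 and 61.2 CPM in sgJUN#1, with narrow spread in both groups. It fell by 1.38 on the log2 scale, with an SE of 0.197 and an adjusted p-value of 0.0339 in edgeR. The call was lost without NTC replicate 1 (0.161), without sgJUN#1 replicate 1 (0.213) and without sgJUN#1 replicate 2 (0.244), while the log2 fold change stayed between -1.44 and -1.33 in all 12 alternatives. MAPK10 and MAP2K7 had log2 fold changes of -0.60 and -0.39 and did not pass.

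Known AP-1 targets were counted from a list of 20, of which 11 were tested and 0 passed with edgeR, DESeq2 or limma-voom. PLAU, PLAUR, IL1B and CXCL8, 4 of the 11, had an unadjusted edgeR p-value under 0.05, where 8.38% of all tested genes did. Over all 11, the log2 fold changes had a median of 0.80. The same 4 genes lay higher in sgJUN#1 without overlap, where 12.2% of all tested genes were. The list was chosen with earlier results of these data known, so these counts are no test of AP-1 targets as a group. The 3 with the largest log2 fold changes were IL1B, CXCL8 and HBEGF, with 2.98, 2.89 and 1.46 (SE 0.941, 1.12 and 0.652). NTC replicate 2 had the highest NTC level of IL1B (89.1 CPM), CXCL8 (172 CPM) and HBEGF (4.48 CPM), and it was also the NTC library with the highest JUN, FOSL1 and BATF3. Without NTC replicate 2, IL1B and CXCL8 passed, with log2 fold changes of 4.58 and 5.08 and edgeR adjusted p-values of 0.00364 and 0.00147. Neither passed without NTC replicate 1, with log2 fold changes of 2.58 and 2.35 (edgeR adjusted p-values 0.468 and 0.477). The same held without NTC replicate 3, with 2.49 and 2.43 (edgeR adjusted p-values 0.74 and 0.865). The matrix metalloproteinase genes MMP1, MMP3, MMP9, MMP10 and MMP13 had at most 2 counts in any library.

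The genes whose pattern over the 5 libraries lay closest to that of JUN were BDKRB1, TMEM158, FZD8, INSC and RPSAP52, with root mean square distances of centred log2 CPM between 0.495 and 0.606. Of the partners, FOSL1 was closest to JUN, at 1.32, and ranked 252 among the tested genes, and FOS was farthest, at 2.57. BDKRB1, a bradykinin receptor, went from 0.825, 4.88 and 0.665 CPM in NTC to 15.5 and 27.2 CPM in sgJUN#1. TMEM158 went from 11.8, 14.7 and 5.1 CPM to 40.9 and 66.9 CPM. Like JUN, all 5 genes were higher in sgJUN#1 without overlap, which the choice by pattern favours, and none passed with edgeR (adjusted p-values 0.0715 to 0.361). Without NTC replicate 2, BDKRB1, TMEM158, INSC and RPSAP52 passed with edgeR, at adjusted p-values of 0.00999, 0.044, 0.012 and 0.0077. TMEM158 also passed without NTC replicate 3 (0.0166). Without NTC replicate 1 none of the 5 passed with edgeR (adjusted p-values 0.317 to 0.467). Among the controls JUN was highest in NTC replicate 2, so the choice by pattern also favours the calls made without that library. RPSAP52 is a pseudogene, and reads of related copies may be counted there.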

How the data were processed

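Libraries were prepared with the QuantSeq 3′ mRNA-Seq FWD kit from column-purified RNA. Per the submitters' processing notes, cutadapt 4.2 and Bowtie2 2.3.5.1 were used with the genome build hg19, and the study's RNA-seq methods name countOverlaps in R for counting. The deposited values are raw counts per Entrez gene, which the authors did not normalise. The gene annotation and the use of strand, of reads with several alignments and of molecular identifiers are not given in the sources used here, so reads of overlapping genes may be shared and PCR copies may count as separate reads.

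Groups were taken from the sample titles, and columns were matched to samples by their descriptions. Symbols came from RefSeq (23308 of 23459 genes), positions from GENCODE version 44 lifted to GRCh37 (hg19), and promoters from RefSeq on GRCh38.p14. Counts were tested with edgeR 4.0.16 in R 4.3.3 (TMM, filterByExpr, robust glmQLFit, group as the only term) over 13616 genes, 9843 being left out by the filter. Adjustment was by Benjamini and Hochberg over these genes, with a threshold of 0.05. All 10 members passed the filter. SE is the log2 fold change over the square root of F, and CPM used TMM-scaled sums of the tested genes. A prior count of 2 entered the log2 CPM from which pattern distances were computed. In simulated counts for this comparison (13371 genes tested), the test called 96 of 96 genes changed 8-fold and 25 of 98 changed 2-fold. Every simulated gene was given the same dispersion, so these calls do not cover genes that vary more between libraries. JUN varied more in NTC (coefficient of variation 57.5%) than the median tested gene (20.8%). At a fitted 9.51-fold JUN did not pass (edgeR adjusted p-value 0.0733). How often genes with such spread are called was not tested. Alternatives used DESeq2 1.42.0, limma 3.58.1 (voom), other scalings and filters, each library left out, and the replicate number as a block. Within groups, every pair of libraries differed beyond counting noise (lowest chi-square per degree of freedom 6.20), so none was a copy of another. Each was counted as its own sample, although this cannot show that they came from separate cultures.

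Named were the 10 members; of the other bZIP list the 4 most abundant in NTC and the 4 with the largest absolute log2 fold change; of the remaining lists any gene past the threshold and the 3 with the largest absolute log2 fold change; the 5 genes nearest to JUN in pattern; and neighbouring genes that may share reads. The members and lists were chosen with earlier results of these data known. KRT14, KRT17, TP63, EGFR, ITGB4, GATA3, PGR, ESR1, FOXA1, XBP1, PLAU, PLAUR, CD68, CD3E, FOSB and the MMP genes were named after their values were seen. One further bZIP gene is not reported here.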

Additional observations from a re-analysis of the deposited data

How the results depend on the processing

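The 28 genes past the threshold became 19 with limma-voom and with library size alone and 22 with upper-quartile scaling. There were 145 with DESeq2, 148 without a filter, 18 with at least 10 counts in every library, 103 with the replicate block, and 10 (without NTC replicate 1), 56 (NTC replicate 2) to 57 (NTC replicate 3) when single libraries were left out. The cause was not tested. The number of members past the threshold was 0 in the fit reported and 1, JUN, with DESeq2 and with the replicate block, and 0 to 1 when single libraries were left out. The direction of JUN was the same under all 12 alternatives, and it passed with DESeq2 (log2 fold change 3.24, adjusted p-value 3.84e-11) and with the replicate block (2.82, edgeR adjusted p-value 1.15e-04), and ranged from 2.84 to 3.68 when single libraries were left out. Over all alternatives its adjusted p-values in edgeR, limma or DESeq2 ran from 3.84e-11 to 0.322.

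JUNB, at 0.00 in the fit reported, changed sign with DESeq2 (0.01), upper-quartile scaling (0.00), without NTC replicate 3 (0.18), without sgJUN#1 replicate 2 (0.28, with -0.35 without sgJUN#1 replicate 1) and with the replicate block (0.15). Further sign changes were ATF2 without sgJUN#1 replicate 1 (0.03; lowest -0.58 without sgJUN#1 replicate 2), ATF6B without NTC replicate 3 (0.04) and without sgJUN#1 replicate 1 (0.17; lowest -1.31), HOOK2 without sgJUN#1 replicate 1 (-0.32; highest 0.40), and FOS and BATF3 with the replicate block (0.58 and -0.03). JUND, FOSL1, FOSL2, ATF3 and ATF7 kept their sign and stayed short of the threshold in all 12 alternatives each. Of the genes nearest to JUN in pattern, BDKRB1 passed in 4 of 11 alternatives, TMEM158 in 6 of 12, FZD8 in 2 of 11, INSC in 1 of 11 and RPSAP52 in 3 of 12, with the direction kept. FOS and BATF3 could not be fitted where the filter dropped them. The share of JUN in JUN-type counts rose by 50 percentage points on average (41 to 58 over 6 alternatives), and the log2 ratios of JUN to FOS-type and ATF-type counts by 3.86 (2.96 to 4.34) and 3.64 (2.96 to 4.06) over 8 alternatives each.

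The groups share the replicate numbers 1 and 2, which the labels tie to no day or batch, and the differences between replicates 1 and 2 in the groups had a correlation of 0.0146 over genes. No pairing was therefore assumed. In the block fit NTC replicate 3 has no partner. Where a group was left with 1 library, that library was assumed to vary like the other group. FOS and BATF3 had 2 to 63 counts per library, and both also differed between NTC libraries beyond counting error.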

Other observations

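The spread of these genes among the 3 NTC libraries was uneven. The coefficient of variation in NTC was 111% for FOS, 94.5% for BATF3, 61.0% for FOSL1 and 57.5% for JUN, above that of 99.8%, 99.5%, 96.2% and 95.3% of tested genes, whose median was 20.8%. For ATF3 it was 11.6%, and for JUNB and ATF2 it was 19.4% and 21.0%. NTC replicate 3 had the highest FOS, FOSL2, JUNB, JUND, ATF2, ATF3 and ATF7 and the lowest JUN, FOSL1 and BATF3 of the NTC libraries, all in CPM.

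Of 6 listed immediate early genes other than AP-1, 4 were tested and 0 passed with edgeR, DESeq2 or limma-voom, and EGR1 and ZFP36, 2 of the 4, had an unadjusted edgeR p-value under 0.05, where 8.38% of all tested genes did. EGR1 had 28.9, 46.4 and 25.1 CPM in NTC against 81.7 and 38.3 CPM in sgJUN#1, with overlap. Its edgeR adjusted p-value was 0.556, at a log2 fold change of 0.87 and an SE of 0.358. The log2 fold change was 0.21 without sgJUN#1 replicate 1 and 1.31 without sgJUN#1 replicate 2. DUSP1 had 335, 246 and 303 CPM in NTC against 254 and 242 CPM in sgJUN#1, and ZFP36 had 132, 76.1 and 116 CPM in NTC against 60.1 and 81.6 CPM in sgJUN#1, with log2 fold changes of -0.25 and -0.62.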
